A study of Mus musculus with 54 samples.

Results

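Dntt, Il7r, Rag1, Rag2, Ebf1, Pax5, Cd79a, Cd79b, Satb1 and Bcl11a, 10 of the 23154 genes in the count table, were chosen by name as genes of lymphoid priming and early B cell development. They were followed in mouse haematopoietic cells profiled one by one with a modified Smart-seq2 protocol, which reads the 3' ends of mRNA. The deposited annotation covered 2301 of 2879 cells from 54 libraries, of which 1031 were collected 1, 3, 5 or 7 days after transplantation and 1270 were sorted in steady state into 28 phenotypes. All mice were C57BL/6 of 8-10 weeks. No other genotype was spelled out. The cell annotation also held the label GFPP, as in library L49, which is not interpreted here. The recipients, their conditioning and the number of animals were not given in the sources used here.

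The transplanted groups were day 1 (61 cells, 3 libraries), day 3 (125 cells, 3 libraries), day 5 (336 cells, 7 libraries) and day 7 (389 cells, 10 libraries). A further 120 transplanted cells came from 3 libraries that pooled collection days. Most transplanted libraries were labelled bone marrow and spleen together. Bone marrow alone was given for L87 (day 1), L72 (day 5) and L60 (day 7), and spleen alone for 4 day 5 libraries. The steady state progenitor groups were iMPP, 508 cells of 9 multipotent progenitor gates in 17 library sums, and iHSC, 305 cells of 5 stem cell gates in 12 library sums. The gates that matter most here were the common lymphoid progenitor (CLP), the lymphoid-primed multipotent progenitor (LMPP, labelled iMPP2), the multipotent progenitor MPP4 (labelled iMPP6) and HPC3 (labelled iMPP9). The sum of all cells of a population within 1 library was taken as a replicate, and levels are counts scaled to 1000000 (CPM) in that sum unless a single cell is named. In such sums, fewer expressing cells and less RNA per cell cannot be told apart.

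Lymphoid priming is the low, early expression of lymphocyte genes in progenitors that still make other lineages. Dntt encodes terminal deoxynucleotidyl transferase, which adds bases at the joints of antigen receptor genes that the RAG1 and RAG2 recombinase cuts. Il7r encodes the receptor chain for interleukin 7, a growth factor of lymphoid progenitors. Ebf1 and Pax5 are the transcription factors that set the B cell programme in motion and hold it, and Cd79a and Cd79b encode the signalling chains of the B cell receptor. Satb1, a chromatin organiser, and Bcl11a, a zinc finger repressor, are needed for lymphoid development and are also made in stem cells.

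On GRCm38 (GENCODE annotation), Dntt lies on chr19:41029275-41059525, Il7r on chr15:9505788-9530176, Ebf1 on chr11:44617317-45008091, Pax5 on chr4:44524757-44710487 and Satb1 on chr17:51736187-51833290. Cd79a lies on chr7:24897381-24902197, Cd79b on chr11:106311341-106314762 and Bcl11a on chr11:24078056-24174123. Rag2 (chr2:101624718-101632529) and Rag1 (chr2:101638282-101649501) are neighbours on opposite strands, 5752 bases apart. The promoters of the 4 genes whose co-detection is described below are shown from 250 bases before to 50 bases after the start of transcription, from the RefSeq annotation of GRCm38.p6. Capitals mark the E-box CANNTG, the kind of site E2A proteins bind, and, in Rag1, 1 TGGGAA, the core of the Ikaros site; both were searched on both strands.
Dntt promoter, chr19:41029025-41029324, plus strand: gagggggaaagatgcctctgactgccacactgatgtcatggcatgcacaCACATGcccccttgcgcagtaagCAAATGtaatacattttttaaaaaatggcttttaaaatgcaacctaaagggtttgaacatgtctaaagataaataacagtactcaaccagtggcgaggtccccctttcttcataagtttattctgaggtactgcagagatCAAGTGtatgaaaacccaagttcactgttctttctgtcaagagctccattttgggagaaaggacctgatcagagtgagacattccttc
Il7r promoter, chr15:9529827-9530126, minus strand: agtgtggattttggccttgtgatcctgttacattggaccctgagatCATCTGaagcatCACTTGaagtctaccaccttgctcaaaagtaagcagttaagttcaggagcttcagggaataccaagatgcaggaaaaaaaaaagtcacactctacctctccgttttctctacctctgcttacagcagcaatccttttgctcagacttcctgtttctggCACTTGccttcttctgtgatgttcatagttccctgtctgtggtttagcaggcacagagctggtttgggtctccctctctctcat
Rag1 promoter, chr2:101649483-101649782, minus strand: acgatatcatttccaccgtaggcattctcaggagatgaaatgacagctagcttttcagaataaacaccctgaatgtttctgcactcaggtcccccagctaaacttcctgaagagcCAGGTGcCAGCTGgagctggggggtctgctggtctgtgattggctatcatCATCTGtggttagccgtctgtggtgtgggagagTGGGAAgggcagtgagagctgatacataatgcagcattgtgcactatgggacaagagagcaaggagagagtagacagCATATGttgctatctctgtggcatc
Rag2 promoter, chr2:101624462-101624761, plus strand: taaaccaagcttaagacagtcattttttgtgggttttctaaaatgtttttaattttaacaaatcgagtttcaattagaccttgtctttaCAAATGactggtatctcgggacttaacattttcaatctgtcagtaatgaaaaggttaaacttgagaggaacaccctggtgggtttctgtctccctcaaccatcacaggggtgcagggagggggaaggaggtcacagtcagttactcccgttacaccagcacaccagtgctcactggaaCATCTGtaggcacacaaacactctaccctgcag
The Dntt window held 3 E-boxes, Il7r 3, Rag1 4 and Rag2 2. An E-box was present in 12 of 14 windows of the listed genes, of which 9 had a window in the table, and in 72.3% of 32817 promoters of the same length. TGGGAA was found in 5 of the 14 windows against 25.6% of all promoters. CCCNNGGG, a palindrome of Ebf1 half-sites, was found in 0 of 14 windows against 13.7% of all promoters. These matches describe letters only.

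Cell totals ranged from 20013 to 1943315 counts with a median of 203971, and library totals ranged from 745742 to 30433157. Cell names were unique, with 0 shared between libraries. The sorted label of the CLP gate fitted its defining markers in part. CLP cells had Il7r in every cell. Of 13 pre-B and B cell genes 7 were found in them, at 178 to 647 CPM in sum, with Ms4a1, Vpreb2, Fcmr, Cr2 and Fcer2a among those at 0, while B cells had 10 of the 13 at 3370 to 6900 CPM. Of 12 T cell genes 9 were found in CLP cells, at 319 to 619 CPM, with Cd3e, Cd8a and Cd8b1 at 0. The natural killer list held 6 of 8 genes in CLP cells, at 1140 to 2610 CPM, and the neutrophil and monocyte list 9 of 9, at 7880 to 10300 CPM. The part of these lists in the CLP values was not tested. The labels of L4 and L49 named other populations than the annotation of their cells, and the annotation was followed. L49 and L55 held both transplanted and steady state cells. Since it is not stated which animals each library came from, p-values measure the spread between libraries, which may be technical.

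One property of the libraries touches every low value. Several populations were processed within 1 library, and low counts of a gene tended to be found in libraries that also held a population rich in it. Among steady state sums with under 100 CPM of Dntt, 13 sums came from libraries in which another population had at least 100 CPM. They had a median of 23.1 CPM with Dntt detected in a median of 91.7% of cells. The 38 sums from libraries with no such population had a median of 0.27 CPM and 3.13% of cells. The level in the 13 sums was 1.79% to 13.1% of the level in the rich population, with a median of 3.23%. CD4 T cells, which should lack Dntt, had 39.6 CPM and 95.5% of cells detected in L53, next to MPP4 cells, and 0 CPM in L2. Granulocytes had 80.6 CPM and 95% of cells detected in L43, next to CLP cells, and 0 CPM in L5. The part of this co-occurrence in the low values below was not tested. Because of it, a share of cells with 1 count is not read as a share of expressing cells, and the main shares are given also after thinning or at 200 CPM in a cell or more.

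**Figure D1:**
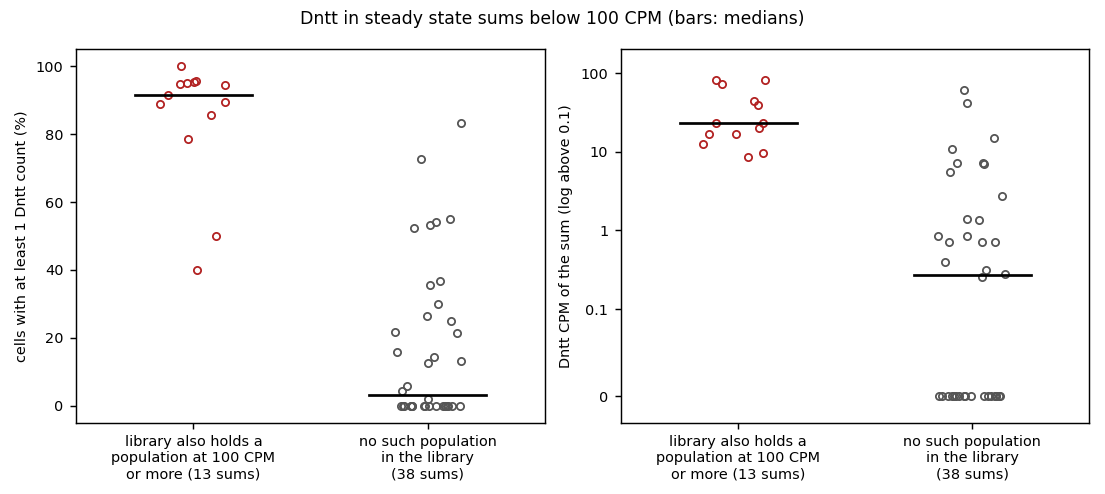
Percent of cells with a Dntt count (one panel) and Dntt CPM (the other) in steady state library sums under 100 CPM, 1 point per sum, for the 13 sums from libraries that also held a population with at least 100 CPM and the 38 sums from libraries that did not; bars mark medians. The medians are 91.7% and 23.1 CPM against 3.13% and 0.27 CPM.

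Dntt was high in CLP, MPP4 and LMPP cells and low in stem cell gates. The 2 CLP sums held 1849 CPM (L43) and 922 CPM (L28). The 3 MPP4 sums held 1223, 645 and 485 CPM, and the 2 LMPP sums 986 and 549 CPM. These 3 populations overlapped each other and all lay above iHSC, whose 12 sums ran from 0 to 18.4 CPM. HPC3 cells varied widely between libraries, with 421, 328 and 60.3 CPM (270 ± 187, SD, n = 3). The ST_HSC gate, a short-term stem cell gate grouped with iMPP, followed with 128 and 41.2 CPM.

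The cells within a gate were not alike. Dntt reached 200 CPM in 44 of 78 MPP4 cells, 18 of 31 LMPP cells, 11 of 30 CLP cells, 13 of 45 HPC3 cells, 2 of 41 ST_HSC cells and 0 of 305 iHSC cells. At 1 count it was found in 97.4% of MPP4 cells (median depth 426670 counts), 96.8% of LMPP cells (311351) and 12.1% of iHSC cells (121266). With each cell thinned to 20000 counts these shares were 85.9%, 80.6% and 3.61%. The CLP gate split by library. The 7 CLP cells of L43 had a median of 2080 CPM per cell, whereas the 23 CLP cells of L28 had a median of 57.2 CPM and a maximum of 2869 CPM. Megakaryocytes of the same L28 library had a median of 73.3 CPM, so a typical L28 CLP cell held no more Dntt than they did.

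Against iHSC, the whole table was fitted with edgeR's quasi-likelihood test and p-values adjusted (Benjamini-Hochberg) over all genes tested; fitted values use CPM scaled by TMM factors. In LMPP cells 2 of the 7 listed genes tested were called at an adjusted p under 0.05, where 0.82% of all 12195 genes were called (0.656% higher and 0.164% lower). In MPP4 cells it was likewise 2 of 7, where 1.77% of all genes were called (1.12% higher and 0.648% lower). The called genes were Dntt and Rag2 in both. Rag2 passed the filter on low counts through the LMPP and MPP4 sums, since iHSC held 2 counts of it in all. Its calls are therefore not independent of that filter, and the shares and medians given here include Rag2. Dntt averaged 846 ± 396 CPM (SD, n = 2) in LMPP sums and 3.74 ± 6.93 CPM (n = 12) in iHSC sums, a log2 change of 7.85 (SE 1.04, edgeR adjusted p = 5.5e-05). In MPP4 sums it averaged 773 ± 362 CPM (n = 3), a log2 change of 7.72 (SE 0.99, edgeR adjusted p = 1.4e-05). No LMPP or MPP4 sum overlapped iHSC. The median log2 change of the 7 tested genes was 1.95 in LMPP, against -0.44 over all genes, and 2.08 in MPP4, against -0.29 over all genes. Without tHSC3 cells in iHSC, described below, these medians were 1.71 and 1.84, and 3 and 2 of 7 were called, where 2.11% and 3.31% of all genes were called. Both comparisons share the iHSC sums.

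Il7r was highest in CLP cells and then in mature T cells. The CLP sums held 767 and 590 CPM (678 ± 125, SD, n = 2), with a count in 30 of 30 cells and at least 200 CPM in 26. CD8 T cells averaged 341 ± 144 CPM and CD4 T cells 275 ± 199 CPM (n = 2 each), so the spread of the T cell sums covered the distance between them. LMPP cells averaged 45.2 ± 15.8 CPM, with a count in 5 of 31 cells and at least 200 CPM in 2. HPC3 cells averaged 10.9 ± 9.06 CPM, MPP4 cells 6.82 ± 5.91 CPM and iHSC 1.29 ± 3.43 CPM. In MPP4 the L53 library, which also held CD8 T cells, had Il7r counts in 7 of 7 cells at 2.38% of the T cell level, while L52 held 0. Relative to iHSC, Il7r missed the threshold in LMPP (log2 change 5.29, SE 1.53, edgeR adjusted p = 0.117) and in MPP4 (log2 change 2.41, edgeR adjusted p = 0.509). The LMPP call depended on the iHSC sums and on the method. Without the 23 iHSC cells of the predicted type tHSC3, described below, the log2 change was 7.37 with an edgeR adjusted p of 0.0034. Without library L76 it was 7.26 with 0.012. DESeq2 on all sums called Il7r in LMPP, with a log2 change of 6.57 and an adjusted p of 0.020.

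Rag1 was highest in CLP. Its CLP sums held 111 CPM (L43) and 47.3 CPM (L28), with a count in 10 of 30 cells and at least 200 CPM in 2. Granulocytes held 20.8 CPM and monocytes 16.4 CPM in L43, which also held CLP cells, and 0 CPM in their other libraries. Those values were 18.8% and 14.8% of the CLP level. HPC3 held 3.47 CPM on average. MPP4 held 1.15 CPM, with 30 counts in 3 of 78 cells, and the 305 iHSC cells together held 1 count, a ratio of counts per total of 39.5 with a counting interval of 6.57 to 1610. Rag1 and Rag2 were not tested against each other. Rag1 did not pass the filter on low counts in any fit and was not tested.

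Rag2 was found in CLP, MPP4 and LMPP sums. It averaged 27.6 ± 4.27 CPM in CLP sums (30.6 and 24.6 CPM), 15.2 ± 9.86 CPM in MPP4 sums (26.2, 12.1 and 7.28 CPM) and 13.3 ± 18.8 CPM in LMPP sums (26.6 and 0 CPM). CLP and MPP4 sums overlapped, as did CLP and LMPP sums. Counts were found in 10 of 30 CLP cells and 45 of 78 MPP4 cells, against 1 of 305 iHSC cells, which held 2 counts in all. After thinning, which removes the greater depth of MPP4 cells, the shares were 13.3% in CLP, 12.8% in MPP4 and 0% in iHSC, and 200 CPM was reached in 0 CLP, 1 MPP4, 1 LMPP and 0 iHSC cells. In MPP4 the log2 change from iHSC was 7.92 (SE 1.5, edgeR adjusted p = 0.0020); as counts per total the ratio was 337 with a counting interval of 92.9 to 2790. In LMPP the log2 change was 7.95 (SE 1.56, edgeR adjusted p = 0.0054) and rested on library L16, since L42 held none; without L16 it was -1.48 (adjusted p = 0.916). With DESeq2 the LMPP call was also lost (adjusted p = 0.074). The gene B230118H07Rik overlaps both Rag genes on the minus strand, had 102 CPM in LMPP, 107 CPM in MPP4, 13.2 CPM in CLP and 61.5 CPM in iHSC, and strand use in counting was not stated. Reads of the overlapping genes could not be told apart here.

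Ebf1 marked B cells and, at a lower level, CLP cells. B cells averaged 107 ± 55.9 CPM (146 and 67.2 CPM, n = 2), with a count in 13 of 40 cells and at least 200 CPM in 5. CLP sums held 22.4 and 3.15 CPM, with a count in 7 of 30 cells and at least 200 CPM in 1. LMPP sums held 7.82 and 0 CPM, and iHSC held 3 counts in all. Pax5 was counted in 0 cells of the table, including all 40 B cells, which goes against its known expression in B cells. A gene that overlaps it, 5730488B01Rik, held 47 counts in 2 day 1 cells (6.83 CPM), 2 counts in 2 day 7 cells and 0 in iHSC, B cells and the other steady state phenotypes. Pax5 is therefore not described further.

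Cd79a, one of the B cell receptor chains, was counted in every B cell and was high in most of them. The B cell sums held 5413 and 4203 CPM, with a count in 40 of 40 cells and at least 200 CPM in 38. Natural killer cells had a count in 39 of 39 cells but only 92.0 ± 29.4 CPM, 1.70% and 2.08% of the B cells in the same libraries. Among the stem cell gates Fraction III stood out. This gate held 443, 355, 147, 4.11 and 0 CPM in its 5 sums, with at least 200 CPM in 16 of 66 cells. LT_HSC averaged 18.7 CPM, ESLAMSK 4.47 CPM, Fraction I 1.47 CPM and ESLAM 0 CPM. The iMPP mean was 1.33 CPM, against 70.9 ± 136 CPM in iHSC.

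These Cd79a counts sat in few cells of the stem cell gates. At least 200 CPM was reached by 17 of 305 iHSC cells, at 216 to 1607 CPM, and 15 of the 17 had the predicted type tHSC3. Library L76 held 10 of them, L54 5, L55 1 and L74 1. The 23 tHSC3 cells of these gates held 455 CPM of Cd79a and 418 CPM of Cd79b. They also held 13600 CPM of Jchain, the joining chain of secreted antibodies, against 189 CPM in the other 282 iHSC cells. Other genes of antibody-secreting plasma cells were high too. Sdc1 had 349 CPM against 3.4, Tnfrsf17 310 against 3.19, Prdm1 203 against 1.43, Irf4 263 against 3.91 and Xbp1 1630 against 131. The stem cell genes Procr (9.22 CPM against 170), Hlf (17.6 against 392) and Mecom (3.95 against 104) were low in them. The defining genes thus went against the stem cell label of these cells, and calls that changed without them are given beside the results.

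Cd79b was more widely spread than its partner chain. B cells averaged 2676 ± 1011 CPM, Fraction III 200 ± 171 CPM and MPP4 89.5 ± 28.3 CPM. It had a count in 88.5% of MPP4 cells, 76% of iMPP cells and 60.7% of iHSC cells, and after thinning in 46.2%, 35% and 36.1%. The iMPP sums averaged 44.3 ± 18.3 CPM and the iHSC sums 117 ± 102 CPM. Cd79b did not pass the test in LMPP (log2 change -1.27, edgeR adjusted p = 0.544) or MPP4 (log2 change -0.37, edgeR adjusted p = 0.879).

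Satb1 and Bcl11a, the broad regulators, had different orders of levels. Satb1 averaged 356 ± 319 CPM in CLP (582 and 131 CPM), 299 ± 79.1 CPM in CD4 T cells and 275 ± 266 CPM in CD8 T cells. It averaged 158 ± 41.6 CPM in MPP4, 134 ± 59.5 CPM in LMPP and 35.7 ± 69.9 CPM in iHSC. The populations next to each other in this order overlapped. The LT_HSC gate, a long-term stem cell gate within iHSC, held 250 CPM of Satb1 in one sum and 26.4 CPM in the other. Satb1 was found in 96.2% of MPP4 cells and 23.6% of iHSC cells, and after thinning in 75.6% and 11.8%. Its differences from iHSC missed the threshold in LMPP (log2 change 1.95, edgeR adjusted p = 0.530) and in MPP4 (log2 change 2.08, edgeR adjusted p = 0.350). Without library L14, one of the iHSC libraries, the MPP4 difference was 3.37 with an edgeR adjusted p of 0.029. With DESeq2 on all sums it was 3.01 with an adjusted p of 0.041.

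Bcl11a had stem cell gates among its highest levels. LT_HSC averaged 250 ± 57.1 CPM, Fraction III 232 ± 157 CPM, MPP4 192 ± 167 CPM and CLP 168 ± 94.5 CPM. The iMPP mean was 129 CPM and the iHSC mean 201 ± 112 CPM. It was low in natural killer cells (5.89 CPM), CD4 T cells (4.91 CPM) and CD8 T cells (4.32 CPM). The difference from iHSC was -0.63 on the log2 scale in LMPP (edgeR adjusted p = 0.731) and -0.04 in MPP4 (edgeR adjusted p = 0.984).

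**Figure D2:**
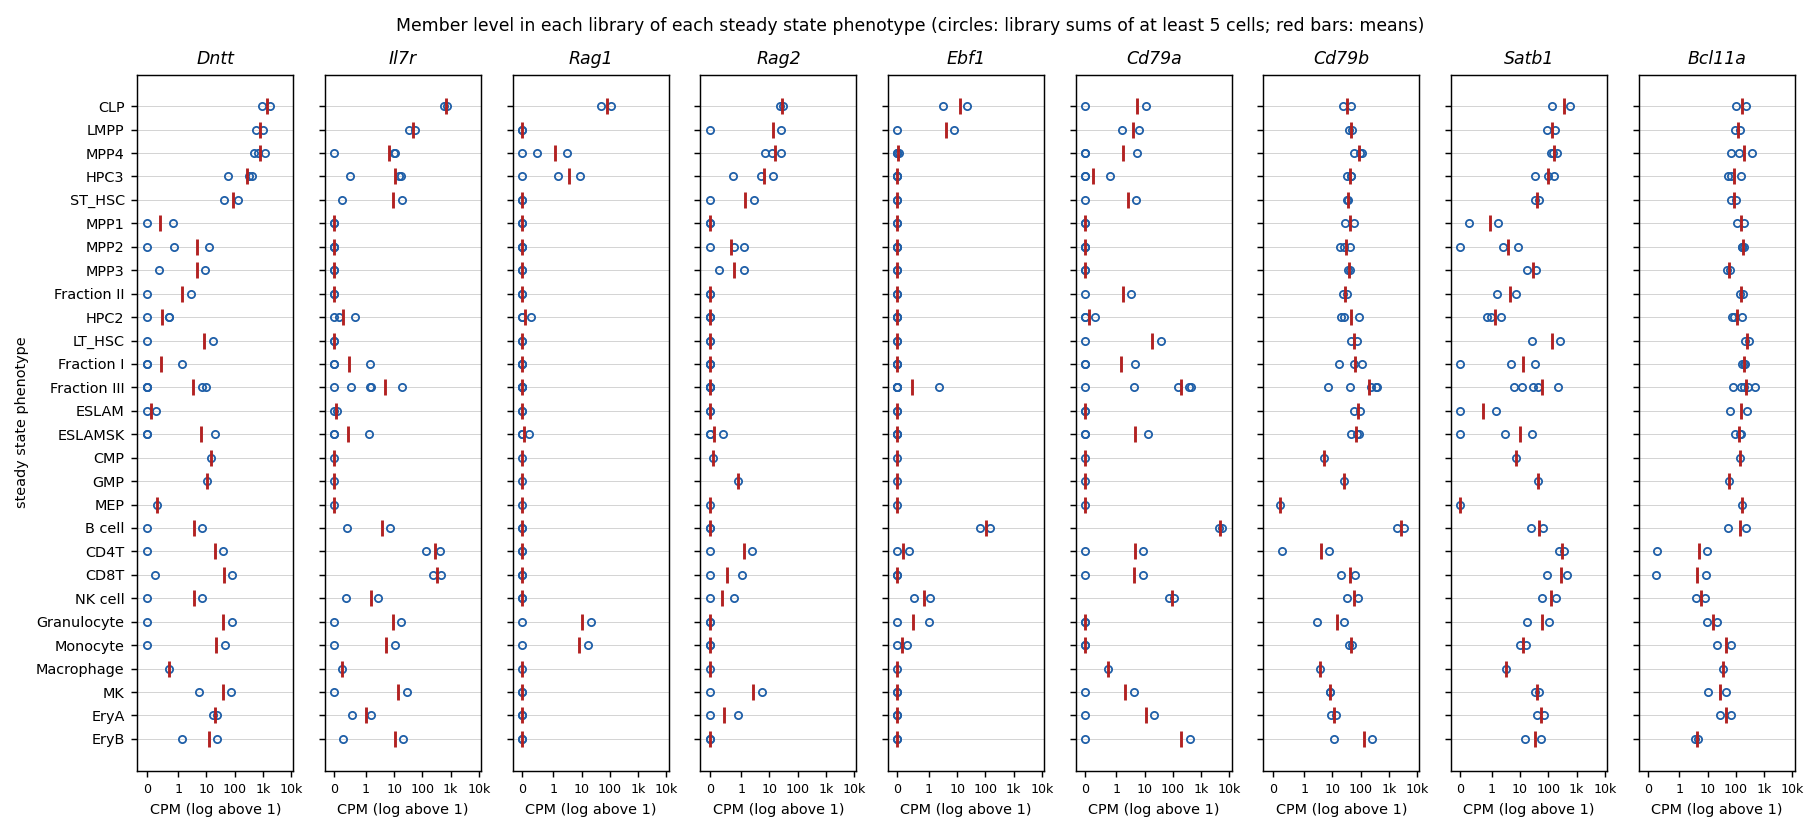
CPM of the 9 detected genes (1 panel each, symmetric log axis) in the steady state phenotypes; circles are library sums and red bars are means. Dntt is highest in CLP, MPP4 and LMPP, Il7r in CLP and T cells, Rag1 in CLP, and Cd79a in B cells with a second group of high sums in Fraction III.

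Within single cells, several listed genes were found together in the lymphoid progenitor gates and in B cells. The median number of listed genes with a count was 5 in CLP, 5 in MPP4, 4 in LMPP, 4 in HPC3, 4 in B cells and 2 in iHSC. At least 3 of them reached 200 CPM in 35% of B cells, 30% of CLP cells, 11.5% of MPP4 cells, 9.68% of LMPP cells, 6.67% of HPC3 cells and 0.328% of iHSC cells. After thinning, at least 3 were found in 70.5% of MPP4 cells, 70% of B cells and 60% of CLP cells. Dntt and Il7r were both counted in 30 of 30 CLP cells. They were both found in 22 of these after thinning to 20000 counts, and both reached 200 CPM in 10. In LMPP the pair fell on 5, 3 and 2 of 31 cells under the same 3 thresholds. In MPP4 it was 21, 4 and 1 of 78 cells, and in HPC3 18, 6 and 0 of 45 cells. The threshold thus set the picture in MPP4 and HPC3 more than in CLP. Most CLP cells came from L28, where a typical CLP cell held no more Dntt than megakaryocytes of that library, and the pairs were not split by library.

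Dntt and Satb1 were the pair that MPP4 cells shared most. Both were counted in 74 of 78 MPP4 cells, in 52 after thinning, and reached 200 CPM in 15. In LMPP the numbers were 25, 13 and 4 of 31 cells, and in CLP 25, 16 and 7 of 30 cells. Dntt with Rag2 was counted in 45 MPP4 cells, in 9 after thinning, and reached 200 CPM in 1. Every MPP4 cell with a Rag2 count therefore also had a Dntt count. Since at least 74 of the 78 MPP4 cells had a Dntt count, this says little about the pair.

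The paired recombinase genes were counted in few CLP cells. In CLP, Rag1 was counted in 10 cells and Rag2 in 10, and both in 3. Rag2 was found in 30% of the cells with Rag1 and in 35% of those without it. Rag1 and Ebf1 were counted together in 6 CLP cells; Ebf1 was found in 60% of the cells with Rag1 and 5% of those without. After thinning, Rag1 was found in 20% of the 30 CLP cells, Rag2 in 13.3% and Ebf1 in 6.67%, too few to judge either pair. The cells were pooled over 2 libraries, and at this depth a cell without a count may still express the gene. Cells of 1 library share their source, so no test was made over cells.

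B cells gave the co-detection of a mature lineage. Cd79a and Cd79b were both counted in 40 of 40 B cells and both reached 200 CPM in 37, while Ebf1 with Cd79a was counted in 13 and reached 200 CPM in 5. The tHSC3 cells of the stem cell gates showed the Cd79a and Cd79b pair in 16 of 23 cells, with both at 200 CPM in 12. The other iHSC cells had 32 of 282 and 0. In T cells Il7r and Satb1 were counted together in 32 of 46 CD4 cells and 30 of 42 CD8 cells.

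**Figure D3:**
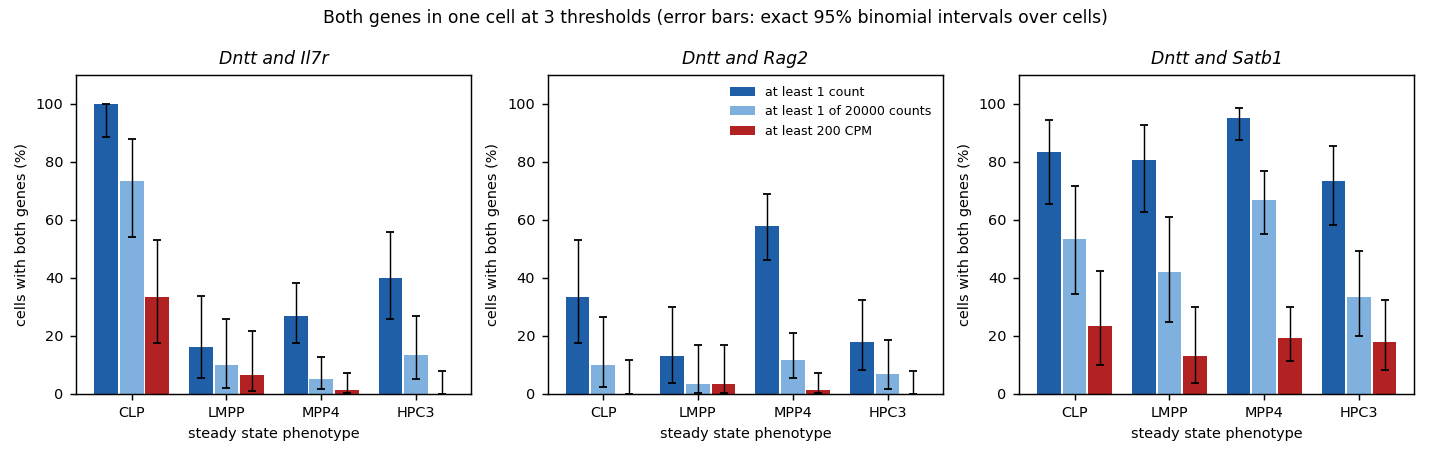
Percent of cells in which both genes of a pair were found, for Dntt with Il7r, Dntt with Rag2 and Dntt with Satb1, in CLP, LMPP, MPP4 and HPC3 cells. The 3 bars per gate are at least 1 count, at least 1 count after thinning each cell to 20000 counts, and at least 200 CPM; the MPP4 pairs fall from 74 cells to 15 for Satb1 and from 45 cells to 1 for Rag2.

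After transplantation the lymphoid progenitor genes were low on days 3, 5 and 7. On day 1 Dntt was found in 1 library, where Il7r was also highest. Dntt held 107, 0 and 0 CPM in the day 1 libraries L87, L84 and L83. It averaged 0.296 CPM on day 3, 1.61 ± 1.85 CPM on day 5 and 1.53 ± 2.33 CPM on day 7, against 3.66 ± 6.81 CPM in iHSC. Counts were found in 4.92%, 0.8%, 5.06% and 7.97% of cells on days 1, 3, 5 and 7, and 200 CPM was reached in 2 day 1 cells and in 0 on the later days. Il7r held 123, 0 and 25.4 CPM in L87, L84 and L83, then averaged 0 CPM on day 3, 0.927 CPM on day 5 and 1.16 CPM on day 7. The recombinase genes were nearly unseen. Rag1 was counted in L84 on day 1 (5.45 CPM) and averaged 0.372 CPM on day 5. Rag2 had 0 counts on every single day, which allows up to 4.92%, 2.4%, 0.893% and 0.771% of cells with a count on days 1, 3, 5 and 7.

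The B cell genes were also high in day 1 library L87. Ebf1 held 44.3 CPM in L87, 0.202 CPM in L84 and 0.847 CPM in L83, with 1.75 CPM on day 3 and 0 on days 5 and 7. Cd79a held 825, 18.4 and 0 CPM in L87, L84 and L83, and averaged 1.41 CPM on day 3, 0.971 CPM on day 5 and 0.166 CPM on day 7. The 13 cells of L87 stood apart from the other day 1 cells by their markers as well: 10 of 13 pre-B and B cell genes were found, at 687 CPM in sum, against 76.6 CPM in L84 and 7.62 CPM in L83. The neutrophil and monocyte list was also higher there, with 7 of 9 genes at 79800 CPM in sum in L87, against 2690 CPM in L84 and 5690 CPM in L83. The T cell list held 131 CPM in L87, 41.4 CPM in L84 and 44 CPM in L83. The 6 stem cell genes were all at 0 in L87, with 619 CPM in L84 and 752 CPM in L83. L87 was also the only day 1 library labelled bone marrow alone. The part of that difference in cell makeup in the day 1 results was not tested.

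Relative to iHSC, 1 of the 7 listed genes tested was called on day 1, where 3.14% of all 13353 genes were called (2.34% higher and 0.801% lower). That gene was Ebf1, at 15.2 ± 25.5 CPM (TMM scaled, n = 3) against 3 counts in all iHSC cells, a ratio of counts per total of 83.7 with a counting interval of 26.4 to 425. Its log2 change was 6.48 (SE 1.84, edgeR adjusted p = 0.049). Without L87 the log2 change was 1.27 (adjusted p = 0.891), and without L83 it was 7.01 with an adjusted p of 0.070. Leaving out any of 11 iHSC libraries (L1, L14, L15, L49, L50, L51, L55, L73, L74, L76 or L81) gave a log2 change of 6.29 to 6.45 and an adjusted p of 0.064 to 0.073, and without L54 no listed gene was called. Without the 6 day 1 cells of the predicted types tLym and tCP the log2 change was 5.97 with an adjusted p of 0.072. Il7r (log2 change 5.24, adjusted p = 0.088), Dntt (3.19, 0.326) and Cd79a (1.96, 0.518) missed the threshold. Without the tHSC3 cells in iHSC, Il7r (7.34, adjusted p = 0.012) and Cd79a (6.63, adjusted p = 0.0017) were called.

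On day 3, 0 of 7 listed genes were called with edgeR, where 1.12% of all genes were called (1.01% higher and 0.105% lower). At an unadjusted p under 0.05 there were 2, Cd79a and Cd79b, and DESeq2 also called 0. Satb1 averaged 5.48 ± 1.32 CPM on day 3, against 35.7 ± 69.9 CPM in iHSC, with a count in 10.4% of cells against 23.6%. Bcl11a averaged 205 ± 31.9 CPM on day 3, with a count in 96% of cells, close to the iHSC mean of 201 ± 112 CPM.

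On days 5 and 7 the 2 B cell receptor chains were lower than in iHSC. On day 5, 2 of 7 genes were called, where 7.57% of all genes were called (4.28% higher and 3.29% lower). On day 7 it was likewise 2 of 7, where 20.8% of all genes were called (10.4% each way). Cd79b averaged 21.5 ± 6.72 CPM on day 5 (n = 7) and 120 ± 108 CPM in iHSC (n = 12), a log2 change of -2.46 (SE 0.51, edgeR adjusted p = 0.0015). On day 7 it averaged 32.6 ± 10.5 CPM (n = 10), a log2 change of -1.87 (SE 0.43, edgeR adjusted p = 0.0015). Cd79a fell by 6.43 on the log2 scale on day 5 (SE 1.73, edgeR adjusted p = 0.016) and by 8.51 on day 7 (SE 1.64, edgeR adjusted p = 0.00022). On day 5 its median over sums was 0.334 CPM, against 0.265 CPM in iHSC, whose mean was 73.2 CPM, and the ranges overlapped. The call was lost in a limma fit with the library as a block (-3.20, adjusted p = 0.180) and with at least 10 cells per sum (-4.92, adjusted p = 0.054). The pre-B and B cell marker list moved too, with 2 of 11 genes lower on day 5 and 8 of 11 on day 7. The tHSC3 cells of iHSC bore on these calls: without them 1 and 4 of 9 marker genes were lower. Cd79a on day 5 without them was at -1.74 (edgeR adjusted p = 0.401) and Cd79b on day 7 at -0.99 (adjusted p = 0.068), so 1 of 6 listed genes tested was called on each of these days, where 10% and 25.5% of all genes were called, and 2 of 6 on day 1, where 5.78% were. Cd79b was still counted in 48.2% of day 5 cells and 53.7% of day 7 cells, against 60.7% of iHSC cells.

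Satb1 averaged 8.34 ± 7.07 CPM on day 5 and 8.58 ± 8.90 CPM on day 7, and its differences from iHSC missed the threshold (log2 change -2.29, edgeR adjusted p = 0.174, and -2.09, adjusted p = 0.083). The median of Satb1 over TMM-scaled sums was 5.48, 6.95 and 6.64 CPM on days 3, 5 and 7. In iHSC it was 9.26 CPM, with 297 CPM in the highest sum. Without iHSC library L15 the day 7 difference of Satb1 was -2.31 with an edgeR adjusted p of 0.047. With DESeq2 on all sums it was -2.25 with an adjusted p of 0.038. Bcl11a averaged 136 ± 49 CPM on day 5 and 115 ± 71.1 CPM on day 7. Its log2 change on day 7 was -0.74 (edgeR adjusted p = 0.093), and -0.89 with an adjusted p of 0.040 without L15. It was also called lower on day 7 with RLE scaling (adjusted p = 0.031), DESeq2 (0.017), limma with a library block (0.024) and at least 10 cells per sum (0.035). The medians over the 7 tested genes were 1.96, -2.98, -2.29 and -1.87 on days 1, 3, 5 and 7, against -0.26, -0.17, -0.12 and -0.10 over all genes. On days 3 and 5 the middle gene was Satb1. Without tHSC3 cells in iHSC the medians over 6 tested genes were 2.3, -2.23, -1.44 and -1.15, against -0.22, -0.13, -0.10 and -0.08 over all genes. All 4 comparisons share the iHSC sums, so these values are not independent of each other.

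Set against iMPP, day 7 cells lacked the Dntt of the lymphoid-primed gates. One of the 4 listed genes tested was called, where 3.86% of all 11076 genes were called (2.34% higher and 1.53% lower). Dntt averaged 1.49 ± 2.15 CPM in the 10 day 7 sums and 279 ± 412 CPM in the 17 iMPP sums, a log2 change of -7.53 (SE 1.6, edgeR adjusted p = 0.0058). The ranges overlapped, because several iMPP gates also held little Dntt. Satb1 averaged 8.60 ± 8.88 CPM on day 7, against 65.1 CPM in iMPP, and missed the threshold narrowly (log2 change -2.89, edgeR adjusted p = 0.054). It was called lower with DESeq2 (-2.92, adjusted p = 0.0081) and without the low count filter (-2.895, edgeR adjusted p = 0.0205). Of 26 libraries left out in turn, 7 (L23, L37, L38, L39, L47, L51 or L74) gave an edgeR adjusted p of 0.035 to 0.049. Cd79b (-0.50, adjusted p = 0.249) and Bcl11a (-0.13, adjusted p = 0.872) did not pass the test. The tested genes had a median log2 change of -1.70, against -0.02 over all genes.

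**Figure D4:**
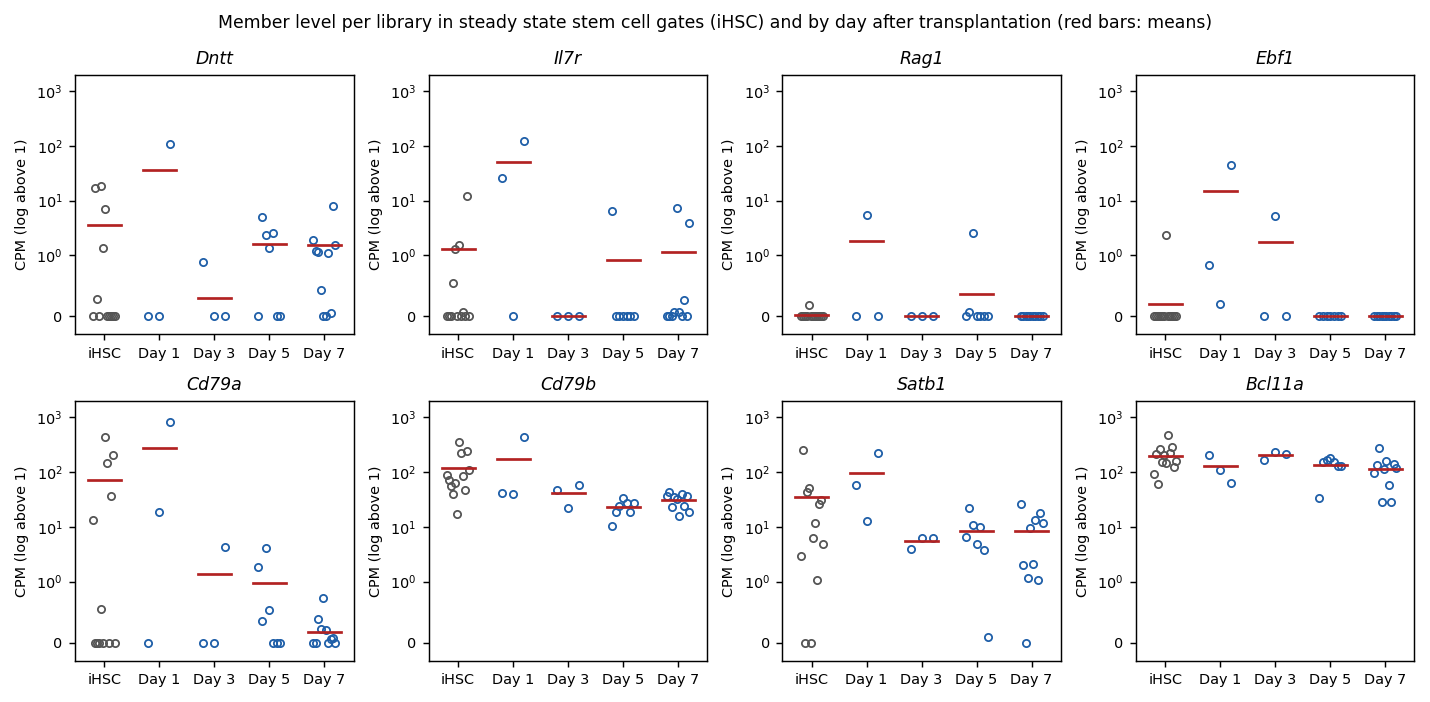
CPM of 8 of the genes in each library sum (circles) of iHSC and of cells collected on days 1, 3, 5 and 7, with means as red bars. The day 1 circle far above the others for Dntt (107 CPM), Il7r (123 CPM), Ebf1 (44.3 CPM) and Cd79a (825 CPM) is library L87.

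The predicted types of the deposited annotation allowed transplanted cells to be set beside steady state cells of the same name, as a description, because the types were themselves made from these cells. Dntt levels differed between the origins. In type tMPP4 it had 4.0 CPM over 56 transplanted cells and 555 CPM over 93 steady state cells. It reached 200 CPM in 0 transplanted and 37 steady state cells. In type tMPP5 it had 3.6 CPM over 166 transplanted cells, 0 of them at 200 CPM, and 685 CPM over 75 steady state cells, 39 of them at 200 CPM. As library means this was 5.67 ± 6.68 CPM (n = 4) against 409 ± 257 CPM (n = 8) in tMPP4, and 3.54 ± 5.84 CPM (n = 12) against 736 ± 431 CPM (n = 5) in tMPP5. The transplanted and steady state libraries did not overlap in either type. The share of all genes that likewise did not overlap was not counted. The sorted gates that supplied the steady state cells of each type were not separated. Median depths in tMPP5 were 286176 counts in transplanted and 438674 counts in steady state cells, and after thinning to 20000 counts Dntt was found in 3.61% and 76% of cells.

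Other listed genes followed in part. Satb1 in tMPP5 had 14.4 CPM in transplanted and 142 CPM in steady state cells, with counts in 34.3% and 96% of cells. In tMPP4 it had 16.1 and 105 CPM, with counts in 33.9% and 65.6%. Rag2 was counted in 0.602% of transplanted and 46.7% of steady state tMPP5 cells, and reached 200 CPM in 0 and 2 cells. Bcl11a did not part the origins. It had 149 CPM in transplanted and 129 CPM in steady state tMPP5 cells, with counts in 95.2% and 93.3%, and 131 and 158 CPM in tMPP4, with counts in 87.5% and 91.4%. Transplanted tMPP5 cells had a Dntt count in 1 of 4 cells on day 1, 6.25% of 16 on day 3, 8.11% of 74 on day 5 and 19% of 58 on day 7, at 1.6, 2.4, 2.44 and 6.4 CPM. The highest single cell of these held 121 CPM.

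**Figure D5:**
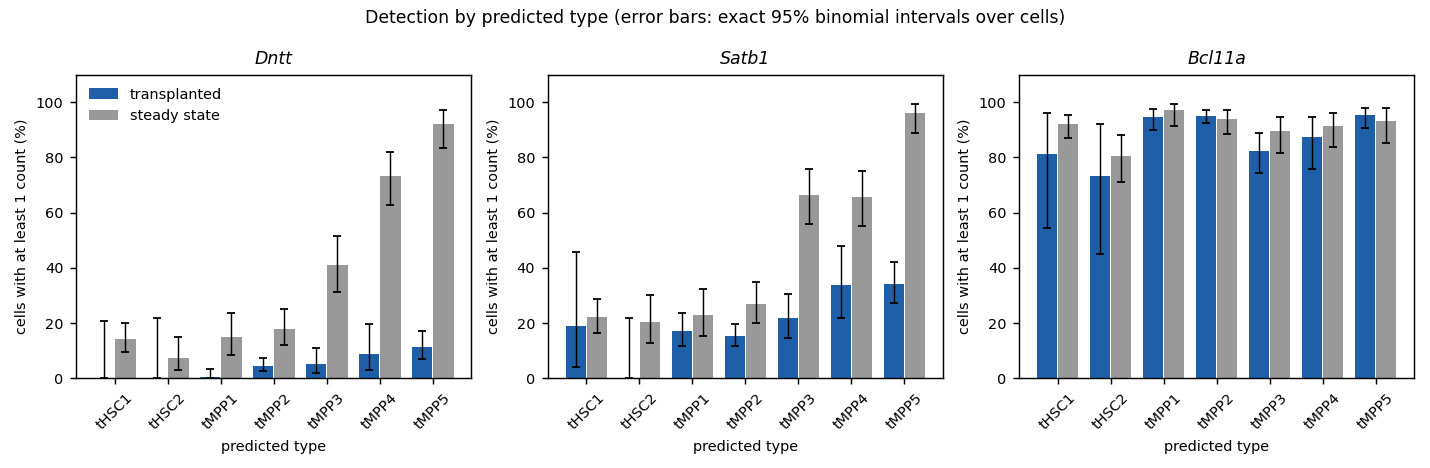
Percent of cells with a count of Dntt, Satb1 and Bcl11a in the predicted types tHSC1 to tMPP5, transplanted cells on the left of each pair and steady state cells on the right, with exact 95% binomial intervals that cover counting error only. In tMPP5 the shares are 11.4% and 92% for Dntt, 34.3% and 96% for Satb1, and 95.2% and 93.3% for Bcl11a.

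Transplanted cells with a high level of a lymphoid gene were rare. Of 1031, 16 reached 200 CPM of Dntt, Il7r, Rag1, Rag2, Ebf1 or Cd79a. Library L87 (day 1) held 6 of them and L88, a library that pooled day 1 and day 3 cells, held 4. L84 (day 1) and L59 (day 7) held 2 each, and L69 (day 5) and L77 (pooled days) 1 each.

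These cells fell into different patterns. One L87 cell of type tCP3 had 839.7 CPM of Dntt, 543.3 CPM of Il7r and 1498 CPM of Satb1 with 0 Cd79a. Another L87 cell, of type tLym3, had 869.2 CPM of Dntt, 279.4 CPM of Il7r and 1180 CPM of Bcl11a, also with 0 Cd79a. These were the only transplanted cells at 200 CPM of both Dntt and Il7r. Of the other L87 cells, 2 of type tLym3 and 1 of type tMPP5 instead had 8241, 1806 and 4236 CPM of Cd79a together with Ebf1 and 5 B cell markers each. An L88 cell of type tLym2 had 4498 CPM of Cd79a with 287.1 CPM each of Rag1 and Ebf1 and 7 B cell markers, among them the surrogate light chain genes Vpreb1 and Igll1 of B cell precursors. An L88 cell of type tMPP5 held 2249 CPM of Cd79a with Rag2 (43.73 CPM), Vpreb1 and Igll1. On day 7 the 2 cells in L59 had Il7r without the other 5 genes, at 1184 CPM in a tGM1 cell and 285.8 CPM in a tME1 cell. On day 5 the L69 cell, of type tHSC3, had 1212 CPM of Cd79a and 1104 CPM of Cd79b. Each of these is 1 cell, with 9 to 360 counts behind the larger values named.

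The wider lymphoid programme was described with 3 lists of 44 genes. Among V(D)J end joining genes and relatives of Dntt, 1 of 11 was higher in LMPP than in iHSC and 2 of 11 in MPP4, where 0.656% and 1.12% of all genes were higher. Hmgb2, a DNA-bending protein that assists RAG cutting, averaged 2786 ± 180 CPM in LMPP and 2817 ± 514 CPM in MPP4, against 451 ± 256 CPM in iHSC (log2 change 2.63 and 2.64, edgeR adjusted p = 7.7e-05 and 7.1e-06). Hmgb2 was also higher on days 1, 3, 5 and 7, by 2.23, 1.66, 1.74 and 2.24 on the log2 scale. Hmgb1 was higher in MPP4 (1.08), on day 5 (0.65) and on day 7 (0.83). Both proteins act in chromatin generally and are abundant in dividing cells. Xrcc6, the Ku70 end-binding protein, was lower on day 7 than in iHSC (-0.97, edgeR adjusted p = 0.045; -0.64 with 0.122 without tHSC3 cells) and than in iMPP (-0.84, adjusted p = 0.019).

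Among early lymphoid surface and signalling genes, 1 of 15 was higher and 1 lower in LMPP, and 2 higher and 1 lower in MPP4. Over all genes, 0.656% were higher and 0.164% lower in LMPP, and 1.12% and 0.648% in MPP4. Flt3, the receptor tyrosine kinase that marks lymphoid-primed progenitors, averaged 325 ± 33.9 CPM in LMPP and 289 ± 98.3 CPM in MPP4, against 26 ± 23.2 CPM in iHSC (log2 change 3.67 and 3.5, edgeR adjusted p = 0.0029 and 7.0e-04). Ccr9, a chemokine receptor for homing to the thymus, was higher in MPP4 (log2 change 6.59, adjusted p = 0.012). Ltb, a cytokine gene of the lymphotoxin family, was lower in LMPP (-5.50) and MPP4 (-5.13). Day 7 cells had 16.6 ± 15.4 CPM of Flt3, against 118 ± 140 CPM in iMPP (log2 change -2.83, edgeR adjusted p = 0.042), and were lower in Kit (-1.85) and Cd27 (-1.41). Of 15 genes of this list, 0 passed in either direction on day 1 or day 3 relative to iHSC; at an unadjusted p under 0.05 there were 2 and 1. On day 5, 3 were lower, Ltb, Lsp1 and Kit, where 3.29% of all genes were lower. On day 7, 3 were lower and 1 was higher, 26.7% of the list beside 20.8% of all genes called that day.

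Among 17 early lymphoid regulators tested, 0 were called in LMPP (4 at an unadjusted p under 0.05) and 1 in MPP4, Irf8 (log2 change 3.46). Over all genes, 0.82% and 1.77% were called in these gates. On day 1 Irf8 and Id3 were higher, on day 5 Pou2af1 and Irf4 were lower, and on day 7 1 was higher, Id2, and 8 were lower. The shares of all genes called were 3.14%, 7.57% and 20.8% on these days. Without tHSC3 cells the day 5 differences of Pou2af1 (-1.23, edgeR adjusted p = 0.679) and Irf4 (-1.96, adjusted p = 0.399) were not called and 2 genes were higher and 5 lower on day 7; the list then had 1 lower gene in LMPP, 1 higher in MPP4 and 3 higher on day 1. In the same setting the surface list had 2 higher and 1 lower in LMPP, 3 and 1 in MPP4, 1 and 0 on day 1, 0 and 4 on day 5 and 2 and 4 on day 7, and 2 genes of the end joining list were higher in LMPP. Of all genes, 2.11% were then called in LMPP, 3.31% in MPP4, 5.78% on day 1, 10% on day 5 and 25.5% on day 7. Plasma cell genes were also lower: 4 of 6 on day 5 and 6 of 6 on day 7, and without tHSC3 cells 1 and 3 of 6. Both Pou2af1 and Irf4 are also plasma cell genes, and Irf4 stands on both lists.

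The genes whose steady state levels were most like those of the listed genes were found by the correlation of log2(CPM + 1) over the 28 phenotypes, which share libraries, among 12317 genes. Dntt was closest to Rag2 (r = 0.876), C030013G03Rik (0.858) and Sstr2 (0.855), and the last 2 were also closest to Rag2 (0.947 and 0.937). Rag1 was instead closest to Mycl (0.983), Ccdc184 (0.916) and Siglech (0.889), and its correlation with Rag2 was 0.492. Ebf1 and Cd79a were nearest to B cell genes, Ebf1 to Blk (0.919) and Ccr6 (0.909) and Cd79a to Fcrla (0.922) and Spib (0.913). Il7r was closest to Cxcr6 (0.849), Satb1 to Arid5a (0.783), Bcl11a to Pex3 (0.87) and Cd79b to D17H6S56E-5 (0.83). Among the listed genes themselves, Dntt with Satb1 gave 0.731, Il7r with Satb1 0.725, Dntt with Il7r 0.702 and Cd79a with Cd79b 0.659.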

How the data were processed

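Single mouse haematopoietic cells were measured in 54 libraries. The table deposited by the authors holds unnormalized whole-number counts per gene and cell. It is not stated whether these are reads or molecules. Tools named in the submitters' processing notes are TopHat and HTSeq with mm10, with versions not given. The 578 cells without annotation were left out. Counts were added up per population within each library, for 5 cells or more, and libraries served as replicates. CPM are counts per 1000000. Those of edgeR comparisons, and those of tested genes in libraries flagged by Dixon's limits, carry TMM factors. All others do not.

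Tests used edgeR 4.0.16 in R 4.3.3 (filterByExpr and TMM, then two-sided quasi-likelihood F tests, called at a Benjamini-Hochberg adjusted p under 0.05). Days with iHSC (35 sums, biological coefficient of variation 0.993), day 7 with iMPP (27 sums, 0.82) and LMPP, MPP4 and iHSC (17 sums, 1.14) were fitted separately. The steps were tested on simulated data. Alternatives used DESeq2 1.42.0 and limma 3.58.1. The 3 libraries of pooled days were left out of comparisons by day. Thinning drew 20000 counts per cell. Intervals and floors (3 counts) cover counting error only, since no molecular identifiers were reported.

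The listed genes, the pathway lists and the 75 genes of 9 cell type marker lists were chosen with earlier results of these data known. Named genes were the 10 listed, up to 3 called genes per pathway list and comparison with the smallest p, and the 3 genes most like each listed gene among those with at least 10 CPM in a phenotype. Single cells, plasma cell and stem cell genes, overlapping genes, Lsp1, Id2, Id3, Pou2af1 and other genes outside that rule were named after their values were seen. Some genes that the rule names are left unreported. Python 3.11.15 with numpy 2.4.6, scipy 1.17.1 and pandas 2.3.3 was used for the descriptions.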

Additional observations from a re-analysis of the deposited data

Results flagged for a closer look

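In 13 groups of 4 to 10 libraries with a listed gene above 0, the highest or lowest library was compared with its nearest neighbour. The gap was taken relative to the range of the group, and 7 groups passed Dixon's 95% limits. Those limits assume normally distributed values. Where most libraries are at 0, a single library above 0 passes them by construction, so the number flagged is not set against a chance rate. CPM in this paragraph carry TMM factors, except those of Rag1, which was not tested. On day 5, L66 held 36.73 CPM of Bcl11a, next lowest 121.6 CPM, and 6.948 CPM of Il7r, with the other libraries at 0. Without L66 the edgeR adjusted p of Il7r on day 5 against iHSC was 0.036, against 0.782 with it. L69 held 2.533 CPM of Rag1 on day 5, next 0.07222 CPM. On day 7, L55 held 275.1 CPM of Bcl11a (next 159.3 CPM), L63 held 7.547 CPM of Dntt (next 2.031 CPM), and L59 held 0.8531 CPM of Cd79a (next 0.3853 CPM) and 8.602 CPM of Il7r (next 4.088 CPM).

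Cells of pooled collection days entered no comparison by day. In library L88, which pooled day 1 and day 3, 54 cells held 2.052 CPM of Rag1 (9 counts in 1 cell), 1.824 CPM of Rag2 (8 counts in 2 cells) and 8.664 CPM of Ebf1 (38 counts in 4 cells). The highest iHSC sums held 0.1858, 0.3716 and 2.35 CPM of these genes.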

How the results depend on the processing

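In every alternative and with each library left out in turn, Dntt stayed called in LMPP, in MPP4 and, lower, on day 7 against iMPP, and Rag2 stayed called in MPP4; Cd79b on day 5 did too. Leaving out libraries in turn gave 229 to 638 genes called on day 1, 25 to 161 on day 3, 700 to 1065 on day 5, 2384 to 3062 on day 7, 287 to 529 on day 7 against iMPP, 30 to 151 in LMPP and 92 to 279 in MPP4, with 0 to 2, 0, 2 to 3, 2 to 4, 1 to 3, 1 to 3 and 2 to 3 listed genes called; single libraries that ended a call are named with the results. Without the low count filter, 1002 genes were called on day 1 (2 listed), 2654 on day 7 against iMPP (71.9% higher against 60.5%; 5 listed) and 171 in LMPP. DESeq2 called 680 on day 1 (0 listed; 42.9% higher against 74.5%), 265 on day 3 (43.8% against 90.6%), 1582 on day 5 (34.6% against 56.6%), 804 on day 7 against iMPP (2 listed; 45%), 587 in LMPP (16% against 80%) and 706 in MPP4 (20.5% against 63.4%), and 4 listed genes on day 7 (32.2% of genes higher against 50.1%). RLE scaling gave 44.7% higher on day 5 and 35.5% on day 7, and moved the median of all genes by -0.13 and -0.21. A limma voom fit with the library as a block called 103 genes on day 1 (0 listed; 90.3% higher), 314 on day 3, 2200 on day 5 (1 listed; 69.9%) and 60.8% higher on day 7, moving the medians by 0.26 to 0.40. That block was not run for the other fits: its correlation had no estimate in one and no library held 2 groups in the other. With tHSC and tMPP types alone, 222 genes (0 listed) were called on day 1, where Ebf1 turned to -0.54 (adjusted p = 0.971), and 264 on day 7 against iMPP. With at least 10 cells per sum, 42 were called in LMPP. Alternatives chosen after the values were seen left out tHSC3 cells from iHSC (758 genes and 2 listed on day 1, 240 genes on day 3, 1 listed on day 5, 1 listed on day 7, 255 genes in LMPP, 400 in MPP4) or tLym and tCP cells from day 1 (0 listed). Rag2 in LMPP ran from -1.48 (without L16) to 9.47 (without L50). Except where the construction shows it, the cause was not tested. No paired analysis was possible because the replicate numbers follow accession order and pair no samples. Depth limits what 1 count in a cell shows: co-detection moved in 34 of 40 pairings of gene pair and gate after thinning, and in 37 of 40 at 200 CPM.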
